A study of Mus musculus with 36 samples.

Results

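The mouse mitochondrial chromosome (chrM) held 37 of the 55536 genes listed in the deposited count tables. All 37 were taken by their chromosome entry, and no gene was taken or left out by its values. The set itself was chosen with earlier results of these data known. The 37 were 13 mRNA genes, 2 rRNA genes and 22 tRNA genes. The minus strand carried 9 of them, mt-Nd6 and 8 tRNA genes. The counts came from RNA sequencing of 36 libraries of brown pre-adipocytes, the precursor cells of thermogenic fat, in which Cas9 had disrupted Rxra, the gene of a nuclear receptor that pairs with PPARγ. Every group shared this disruption. Clones 48 and 66 re-expressed from a retroviral vector either RxraWT or RxraSA, a form in which a serine that becomes phosphorylated was replaced by alanine. RNA was taken at days 0, 2 and 6 of differentiation in insulin and T3, with dexamethasone, IBMX and indomethacin given over the first 2 days. Each clone, genotype and day had 3 replicates, giving 12 libraries per day and 6 per genotype and day. Each genotype therefore rests on 2 clones, and cells with intact Rxra were not analysed here. The clones were sequenced in separate pools, so that these cannot be told apart. Replicates are called technical in the deposited design text and independent in the methods, and p-values measure the spread between these libraries, which may be technical.

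The mitochondrial chromosome is transcribed from both strands into long RNAs, in which tRNAs lie between most of the mRNAs and rRNAs. Cutting out the tRNAs releases the other RNAs, whose steady levels then also depend on how long each one lasts. The mRNAs encode subunits of respiratory complexes I, III and IV and of the ATP synthase, and the rRNAs and tRNAs serve the mitochondrial ribosomes that translate them. Brown adipocytes are known for their many mitochondria and for burning fuel through this chain to make heat.

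Library totals ran from 11351078 to 24349263 counts, with a median of 18338726, and chrM genes took between 1.11% and 9.09% of them. Clone 48 RxraSA day 0 replicate 1 stood apart, with the lowest total, 12129 CPM of CT010467.1 and 30573 CPM of Lars2 per total count, against 27.8 to 4220 CPM and 9.39 to 2038 CPM in the other 35 libraries. The 10 brown adipocyte markers summed to a median of 153 CPM at day 0, 3543 CPM at day 2 and 6869 CPM at day 6. The 7 of these that were tested, among them Fabp4 and Adipoq, were higher at days 2 and 6 than at day 0. Among all tested genes 35.8% and 32.9% were higher. By their day 0 counts alone Plin1 (1 to 8) and Cidea (0 to 1) would not have passed the filter on low counts, so the 7 are a description. Fabp4 and Adipoq, adipogenic markers in the study, had the highest mean counts of the list at day 6, 62325 and 41491. Ucp1, the uncoupling protein that defines thermogenic fat, had 0 to 5 counts per library, Cidea 0 to 27, Dio2 0 to 20 and Prdm16 0 to 21. The 6 pre-adipocyte markers summed to medians of 350, 67.5 and 85.8 CPM at days 0, 2 and 6. The 4 tested were lower at both later days than at day 0, where 37.5% and 35.4% of all tested genes were lower. This too is a description, since Cd34 would not have passed the filter by its day 2 counts alone (0 to 9). Summed markers stayed at or below 11.5 CPM for macrophages, 0.995 CPM for endothelium and 11.8 CPM for skeletal muscle. These markers moved with the day, their part in the day changes was not tested, and in bulk samples fewer cells of a type and less RNA per cell cannot be told apart.

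A block of neighbouring mitochondrial genes had almost no counts. The 6 mRNA genes of this block, mt-Co2 and mt-Co3 (complex IV), mt-Atp8 and mt-Atp6 (ATP synthase) and mt-Nd3 and mt-Nd4l (complex I), together had 213 of the 9486080 mRNA counts of all libraries. In every library mt-Atp8 and mt-Nd4l were at 0, where a count of 0 allows up to 3 counts, or 0.123 to 0.264 CPM, for counting error only. Of the others, mt-Co2 and mt-Co3 had at most 2 counts in a library, mt-Atp6 at most 1 and mt-Nd3 between 0 and 16. The 5 tRNA genes between them had at most 1 count. All 11 genes lie in GRCm38 at chrM:6390-11042, a stretch of 4653 bases whose mRNA genes recur on the minus strand of chromosome 1 at chr1:24611535-24616188 as a row of annotated genes. Over the 4136 mitochondrial bases that an annotated transcript on chromosome 1 covers, which include 43 bases of mt-Atp8 and none of the 5 tRNA genes, the chromosome 1 genes differed from the mitochondrial ones at 2 bases. These were A1066T in mt-Co1 against Gm29216 and T3C in mt-Nd3 against Gm28438, with positions counted from 1 at the start of the mitochondrial gene. The counting left out reads that map to more than 1 place, and the part of the match in the low counts was not tested. The first 60 bases of 3 pairs, from the GENCODE M21 transcripts, show how alike they are, and the capital marks a mismatch.
mt-Nd3: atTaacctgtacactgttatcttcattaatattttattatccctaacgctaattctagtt
Gm28438: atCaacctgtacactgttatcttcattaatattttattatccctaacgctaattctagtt
mt-Co3: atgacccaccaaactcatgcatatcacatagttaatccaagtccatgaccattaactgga
Gm28437: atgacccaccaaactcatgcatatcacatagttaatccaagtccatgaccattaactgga
mt-Co2: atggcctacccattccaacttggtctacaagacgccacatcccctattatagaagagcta
Gm28661: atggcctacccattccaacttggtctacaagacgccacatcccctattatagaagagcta
Those of mt-Nd3 lie at chrM:9459-9518 and of Gm28438 at chr1:24613060-24613119. Those of mt-Co3 and Gm28437 lie at chrM:8607-8666 and chr1:24613912-24613971, and those of mt-Co2 and Gm28661 at chrM:7013-7072 and chr1:24615506-24615565.

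**Figure D1:**
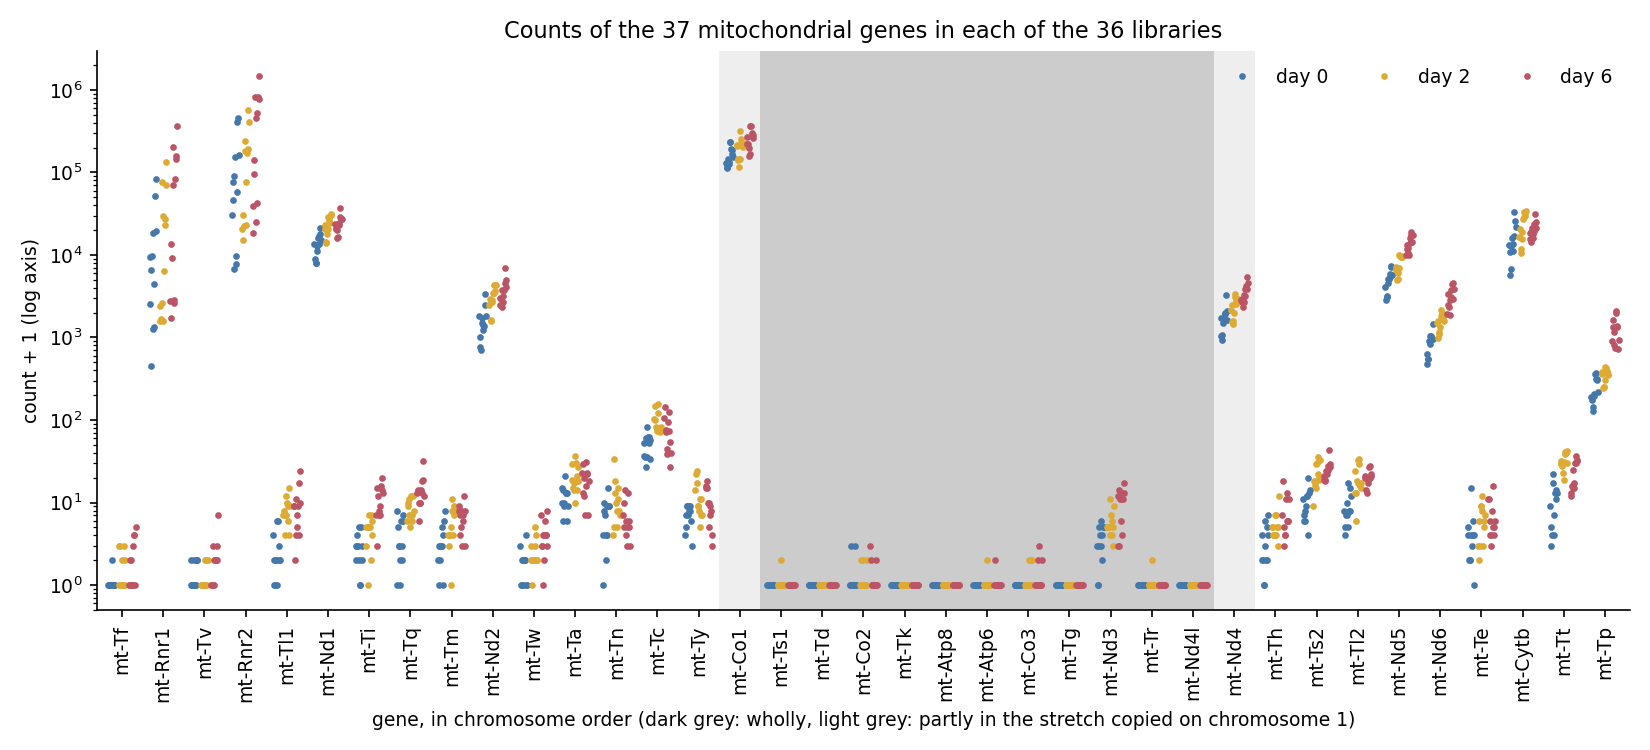
Count plus 1 on a log axis for each of the 37 chrM genes, in chromosome order, with 1 point per library coloured by day. The shaded genes lie wholly (dark) or partly (light) in the stretch that recurs on chromosome 1, and the 11 dark ones have at most 16 counts in any library while mt-Co1 beside them has at least 113396.

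Of the 6 mRNA genes wholly inside the stretch, the 5 with an annotated partner on chromosome 1 had fewer summed counts than that partner. Gm28438 had 42 to 299 counts per library and 5644 in all, against 193 for mt-Nd3, and was the higher in 36 of 36 libraries. Gm10222 exceeded mt-Nd4l in 36 of 36 libraries, Gm28437 exceeded mt-Co3 in 35 and Gm28661 exceeded mt-Co2 in 32, with ties in the others. Gm10925 exceeded mt-Atp6 in 29, tied with it in 6 and was the lower in 1. Gm28438 rose from day 0 to day 2 by 0.85 on the log2 scale (SE 0.11) and from day 0 to day 6 by 1.48 (SE 0.11), with adjusted p = 3.16e-08 and 7.31e-14 by edgeR's quasi-likelihood test. Its counts per 1000 counts of the 7 mRNA genes counted in every library had medians of 0.438, 0.502 and 0.727 at days 0, 2 and 6. Whether these reads came from chromosome 1 or from mitochondrial RNA was not tested. The genes mt-Co1 and mt-Nd4 lie partly in the stretch, with 31.26% and 63.57% of their bases. Of their windows of 75 bases, 39.84% and 61.5% matched another annotated transcript exactly, and the part of these matches in their counts was not tested.

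Among the counted mRNAs, mt-Co1 was by far the most abundant. Values are counts scaled to library size (CPM) after TMM scaling, which sets library sizes so that most genes match between libraries. Per kilobase of gene length, means over 36 libraries were 7370 CPM for mt-Co1, the catalytic subunit of complex IV, 1166 CPM for mt-Nd1 of complex I and 936 CPM for mt-Cytb, the cytochrome b of complex III. The remaining 4 encode complex I subunits and followed at 267 CPM per kilobase for mt-Nd5, 196 for mt-Nd6, 148 for mt-Nd2 and 100.4 for mt-Nd4. Neighbours in this order held it in 36 of 36 libraries for mt-Co1 over mt-Nd1, mt-Cytb over mt-Nd5 and mt-Nd5 over mt-Nd6. It was not held throughout for mt-Nd1 over mt-Cytb (29 of 36), mt-Nd6 over mt-Nd2 (29) or mt-Nd2 over mt-Nd4 (31). With only the bases outside the stretch as length, mt-Co1 came to 10722 CPM per kilobase and mt-Nd4 to 276, which put mt-Nd4 above mt-Nd5 in 24 of 36 libraries. The order is also limited by strand, since counting did not use it: mt-Nd6 and mt-Nd5 lie on opposite strands and overlap at their ends, and RNA antisense to either cannot be told apart from the gene itself.

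All 8 tested mRNA genes rose from day 0 to day 2, by 1.43-fold for mt-Co1 to 2.28-fold for mt-Nd2. A gene is called here where the Benjamini-Hochberg adjusted p of edgeR's quasi-likelihood test was under 0.05 over all 16723 genes tested, which included 19 of the 37 chrM genes. Among all tested genes 35.8% were called higher and 37.5% lower at day 2 than at day 0. Against day 0, day 6 was also higher for 8 of 8, where the shares of all genes were 32.9% higher and 35.4% lower. From day 2 to day 6, mt-Nd3, mt-Nd4, mt-Nd5 and mt-Nd6 rose further, and mt-Nd1, mt-Nd2, mt-Co1 and mt-Cytb were not called, against shares of 31.9% higher and 30.1% lower. Among the 8 is mt-Nd3, whose day 0 or day 2 counts alone would not have passed the filter on low counts. It passed through day 6, where it is high, so its changes between days are a description. Without it the counts against day 0 were 7 of 7. The genes called higher from day 2 to day 6 were then mt-Nd4, mt-Nd5 and mt-Nd6. Without TMM, scaled by library size alone, the median change of all genes moved to -0.27 at day 2 and -0.22 at day 6 against day 0 on the log2 scale, and 7 of 8 and 8 of 8 mRNA genes were called higher. The exception was mt-Co1 at day 2, at 0.25 on the log2 scale. Without the library that stood apart, 8, 8 and 4 mRNA genes were called for the 3 pairs of days.

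The complex I gene mt-Nd6, at chrM:13552-14070, is the only mRNA gene on the minus strand. At day 0 it lay between 31.2 and 56.4 CPM with a median of 43.3, at day 2 between 68.0 and 120 CPM with a median of 94.9, and at day 6 between 106 and 239 CPM with a median of 167. Day 0 did not overlap with either later day, and days 2 and 6 overlapped in their edges, with 11 of 12 day 6 libraries above every day 2 library. The changes were 1.10 (SE 0.11) at day 2 against day 0 and 0.87 (SE 0.10) at day 6 against day 2 on the log2 scale, with adjusted p = 2.16e-11 and 6.13e-09 by edgeR.

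Its overlapping neighbour mt-Nd5 at chrM:11742-13565, a large proton-pumping subunit of complex I, rose in the same stepwise manner. The range was 177 to 350 CPM at day 0 (median 254), 340 to 564 CPM at day 2 (median 472) and 564 to 984 CPM at day 6 (median 775). Neighbouring days touched at their limits, and all 12 day 6 libraries were above all day 2 libraries. On the log2 scale day 2 exceeded day 0 by 0.88 (SE 0.07) and day 6 exceeded day 2 by 0.72 (SE 0.07), with adjusted p = 1.51e-13 and 5.33e-11 by edgeR. The count ratio of mt-Nd6 to mt-Nd5 had medians of 0.172, 0.200 and 0.223 at days 0, 2 and 6, with overlapping ranges.

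Of the other complex I genes, mt-Nd1 and mt-Nd2 rose to day 2 and were not called from there to day 6. The gene mt-Nd1, at chrM:2751-3707, lay between 453 and 993 CPM at day 0 (median 668), 967 and 1671 CPM at day 2 (median 1418) and 953 and 1954 CPM at day 6 (median 1208). Day 0 overlapped with the later days by 1 library each, and days 2 and 6 lay over each other. Its change was 0.99 (SE 0.10, adjusted p = 2.6e-11) from day 0 to day 2 and -0.06 (SE 0.09, adjusted p = 0.616) from day 2 to day 6. For mt-Nd2, at chrM:3914-4951, the range was 39.8 to 156 CPM at day 0 (median 73.3), 109 to 236 CPM at day 2 (median 189) and 136 to 361 CPM at day 6 (median 184). It rose by 1.19 (SE 0.14, adjusted p = 4.52e-09) to day 2, and day 6 differed from day 2 by 0.15 (SE 0.14, adjusted p = 0.359). On the same scale mt-Nd4, at chrM:10167-11544, had medians of 85.0, 149 and 181 CPM and rose by 0.69 (SE 0.10) and then 0.45 (SE 0.10, adjusted p = 0.000299). The few mt-Nd3 counts, 0 to 5 per library at day 0, 2 to 10 at day 2 and 2 to 16 at day 6, gave 1.08 (SE 0.37) and then 0.79 (SE 0.30, adjusted p = 0.021). Both changes are a description, since mt-Nd3 passed the filter on low counts only through day 6.

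The complex IV gene mt-Co1 and the complex III gene mt-Cytb also rose to day 2. The range of mt-Co1, at chrM:5328-6872, was 6371 to 11878 CPM at day 0 (median 7662), 7249 to 17573 CPM at day 2 (median 11991) and 8988 to 20656 CPM at day 6 (median 14180). The days overlapped widely, and yet each of the 12 same-numbered pairs was higher at the later day in every pair of days. Replicate numbers do not pair the days throughout, so these pairs are a description. Its change was 0.51 (SE 0.13, adjusted p = 0.000483) from day 0 to day 2, 0.76 (SE 0.13, adjusted p = 2.29e-06) from day 0 to day 6 and 0.25 (SE 0.13, adjusted p = 0.0832) from day 2 to day 6. The last was 0.25 and called with replicate numbers as a block (adjusted p = 0.00295 by edgeR), and 0.30 and called without replicate 1 of clone 48. The gene mt-Cytb, at chrM:14145-15288, lay between 383 and 1552 CPM at day 0 (median 667), 722 and 1811 CPM at day 2 (median 1422) and 859 and 1623 CPM at day 6 (median 1113). It rose by 0.80 (SE 0.14, adjusted p = 5.92e-06) to day 2, and day 6 differed from day 2 by -0.23 (SE 0.14, adjusted p = 0.158). Without replicate 2 of clone 48 this last difference was -0.34 and called.

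**Figure D2:**
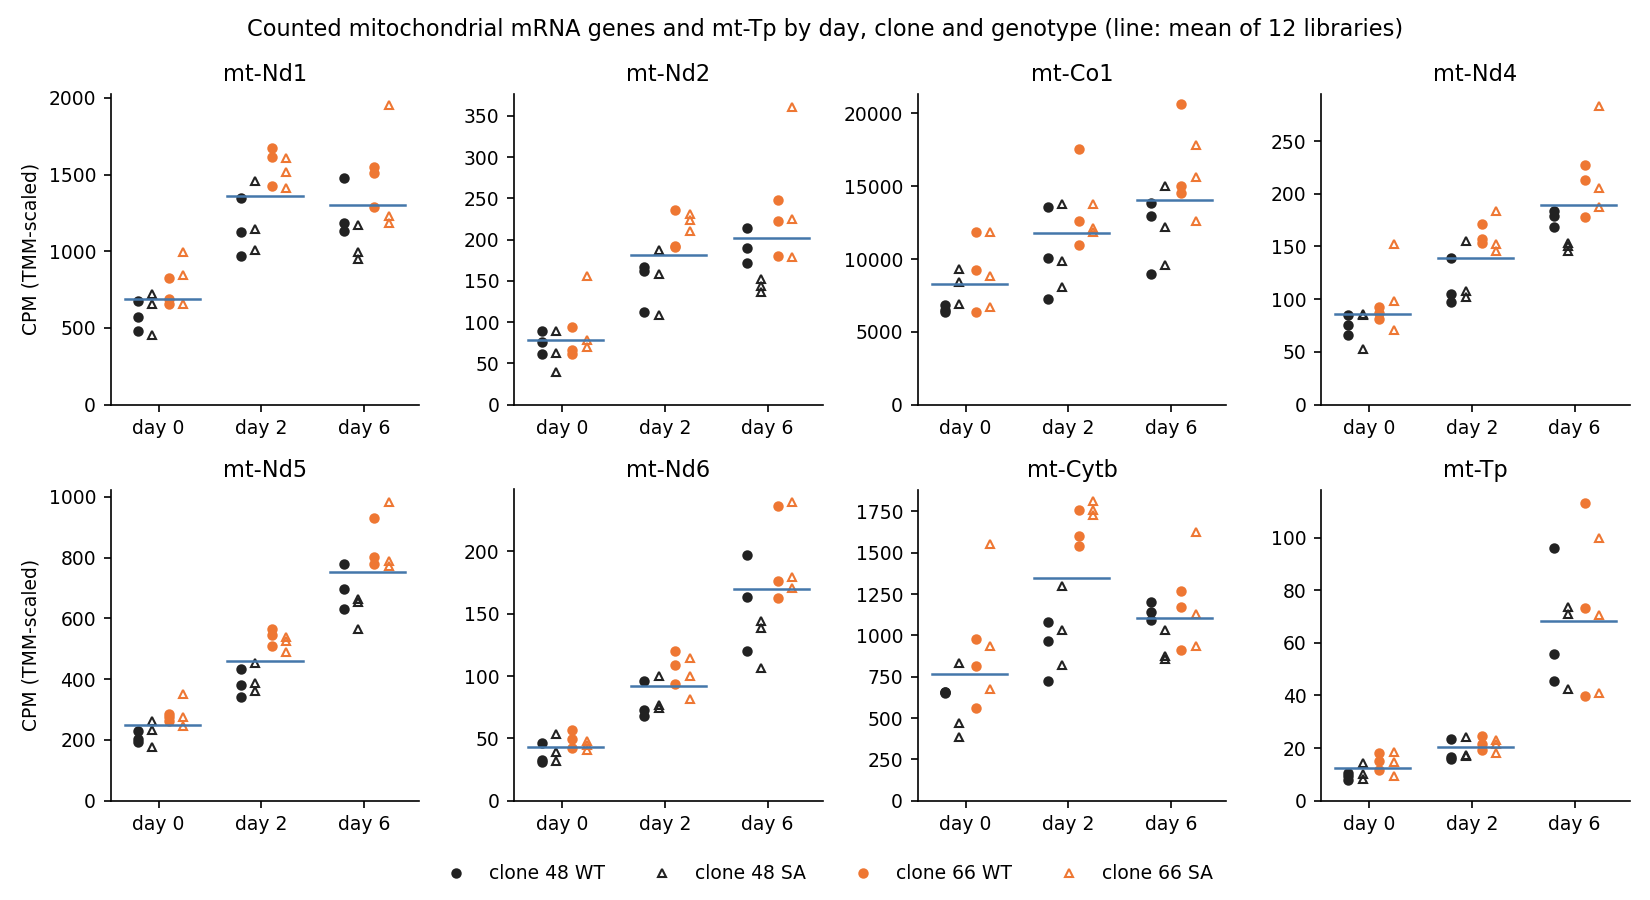
TMM-scaled CPM of the 7 mRNA genes counted in every library and of mt-Tp, by day, with 1 point per library (filled, RxraWT; open, RxraSA; black, clone 48; orange, clone 66) and a line at the mean of 12 libraries. The means of mt-Nd5 and mt-Nd6 step up at each day, from 249 to 753 CPM and from 43.0 to 170 CPM, while mt-Cytb is highest at day 2 and mt-Tp stands apart at day 6.

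Within the mitochondrial transcriptome, the mRNAs did not keep their proportions. Of all chrM mRNA counts, the share of mt-Co1 had medians of 81.0%, 75.9% and 78.2% at days 0, 2 and 6, with a range of 71.3% to 88.1% over all libraries. The share of mt-Nd5 had medians of 2.52%, 2.97% and 4.41%, and that of mt-Nd6 of 0.389%, 0.590% and 0.913%. The share of mt-Cytb had medians of 7.93%, 9.50% and 6.51% and overlapped between days. To test this, the sum of the 13 mRNA counts replaced the library size. From day 0 to day 2, mt-Nd1 (0.40), mt-Nd2 (0.59), mt-Nd5 (0.29) and mt-Nd6 (0.48) then rose on the log2 scale. On this reference 13.9% of all genes were called higher and 61.5% lower, since most genes fell against the mitochondrial sum. At day 6 against day 0, mt-Nd2 (0.53), mt-Nd3 (1.09), mt-Nd4 (0.35), mt-Nd5 (0.79) and mt-Nd6 (1.15) rose, where the shares were 10.8% higher and 73.7% lower. Of these, mt-Nd3 rests on 0 to 16 counts per library. It passed the filter on low counts only through day 6, so its rise is a description. Between days 2 and 6, mt-Nd5 (0.50) and mt-Nd6 (0.67) rose and mt-Nd1 (-0.28) and mt-Cytb (-0.43) fell, where the shares were 20.6% and 39.1%. Of these 4, mt-Nd1 was not called without replicate 3 of clone 48 or replicate 1 or 3 of clone 66 (-0.25, -0.24 and -0.25). Nor was mt-Cytb without replicate 1 of clone 48 or any 1 replicate of clone 66 (-0.46 to -0.32).

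Since mt-Co1 made up most of that sum, the reference was largely mt-Co1 itself. Against the 5 mRNA genes outside the copied stretch, mt-Co1 fell from day 0 to day 2 by 0.46 on the log2 scale (adjusted p = 0.0114), and against the median ratio of the mRNA genes by 0.43 (adjusted p = 0.0104). The sum of those 5 is not neutral either. It is weighted to mt-Cytb and mt-Nd1, with day 0 means of 764 and 686 CPM, and holds mt-Nd5 (249 CPM) and mt-Nd6 (43.0 CPM) themselves. From day 0 to day 6, mt-Nd5 was higher under all 3 references (0.79, 0.62 and 0.35), as was mt-Nd6 (1.15, 0.99 and 0.70). For mt-Cytb the same difference was -0.25 (adjusted p = 0.19) against the mRNA sum, and it was called lower against the other 2 references, by 0.39 and 0.67. From day 0 to day 2, mt-Nd4 stood at 0.09 against the mRNA sum, which was not called, and fell by 0.22 and 0.19 against the others. The rise of mt-Nd5 and mt-Nd6 relative to their neighbours at day 2 was seen against the mRNA sum and not against the others, where mt-Nd6 was at 0.17 and 0.19 and mt-Nd5 at -0.039 and -0.010.

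**Figure D3:**
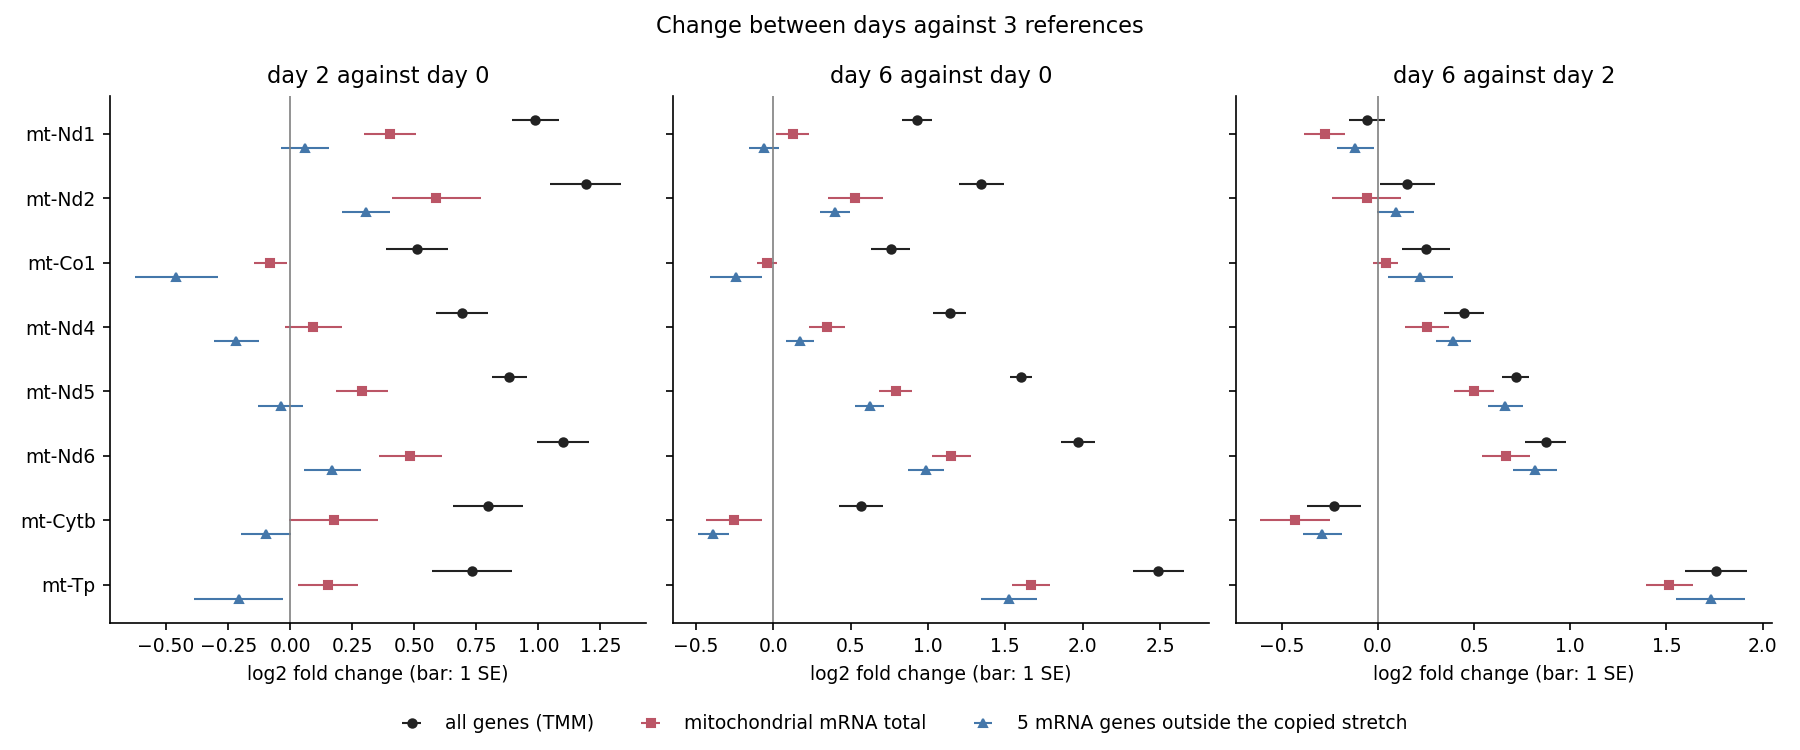
Log2 fold change (point) with 1 SE (bar) of the 7 counted mRNA genes and mt-Tp for each pair of days, measured against all genes with TMM scaling (black), the mitochondrial mRNA sum (red) or the 5 mRNA genes outside the copied stretch (blue). Against all genes every point at day 2 and day 6 is above day 0, and against the mitochondrial references mt-Nd5, mt-Nd6 and mt-Tp remain above 0 at day 6 against day 0 and day 2.

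The rRNA genes mt-Rnr1 at chrM:70-1024 and mt-Rnr2 at chrM:1094-2675, which encode the RNAs of the small and large subunit of the mitochondrial ribosome, varied far more between replicates than the mRNAs. The library kit is made to remove ribosomal RNA, so their counts are of what remained. Together they took 0.0456% to 7.57% of all counts, while the mRNAs took 0.883% to 2.32%. The level of mt-Rnr2 ran from 383 to 19348 CPM at day 0 (median 4201), 1041 to 31376 CPM at day 2 (median 6808) and 1019 to 65487 CPM at day 6 (median 16972). The level of mt-Rnr1 had medians of 448, 820 and 2424 CPM with a similar overlap between all days. From day 0 to day 6, mt-Rnr1 rose by 2.55 on the log2 scale (SE 0.88, adjusted p = 0.0107) and mt-Rnr2 by 1.96 (SE 0.70, adjusted p = 0.0135) by edgeR's test. Without replicate 3 of clone 48 these values were 1.47 and 1.42, and neither was called. From day 0 to day 2 the differences of 1.13 (SE 0.84, adjusted p = 0.226) and 0.58 (SE 0.68, adjusted p = 0.442) were not called. From day 2 to day 6 they were 1.43 (SE 0.85, adjusted p = 0.144) and 1.38 (SE 0.69, adjusted p = 0.0809), and mt-Rnr2 was called without replicate 1 of clone 66 (1.44). The share of all genes called in each pair of days is that given for the mRNAs.

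Replicate number moved with the rRNAs and with mt-Co1. Averaged over the genotypes, replicate 3 had the highest mt-Rnr1 and mt-Rnr2 in 6 of 6 combinations of clone and day. In the same combinations mt-Co1 was highest in replicate 1 and lowest in replicate 3, with means such as 13697, 9971 and 7671 CPM in replicates 1 to 3 of clone 48 at day 2. The tRNA gene mt-Tp was highest in replicate 1 in 5 of 6 and lowest in replicate 3 in 5 of 6. No other counted mRNA gene was highest in the same replicate in more than 4 of 6, and mt-Nd2 and mt-Cytb were lowest in replicate 3 in 0 of 6. Single libraries departed from it, and RxraSA day 0 replicate 2 of clone 66 had 19348 CPM of mt-Rnr2 against 7123 CPM in replicate 3. The nuclear gene CT010467.1 had medians of 165, 106 and 746 CPM in replicates 1, 2 and 3, and Lars2 had medians of 385, 16.7 and 41.8 CPM. The part of rRNA removal or of the replicate runs in these values was not tested.

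**Figure D4:**
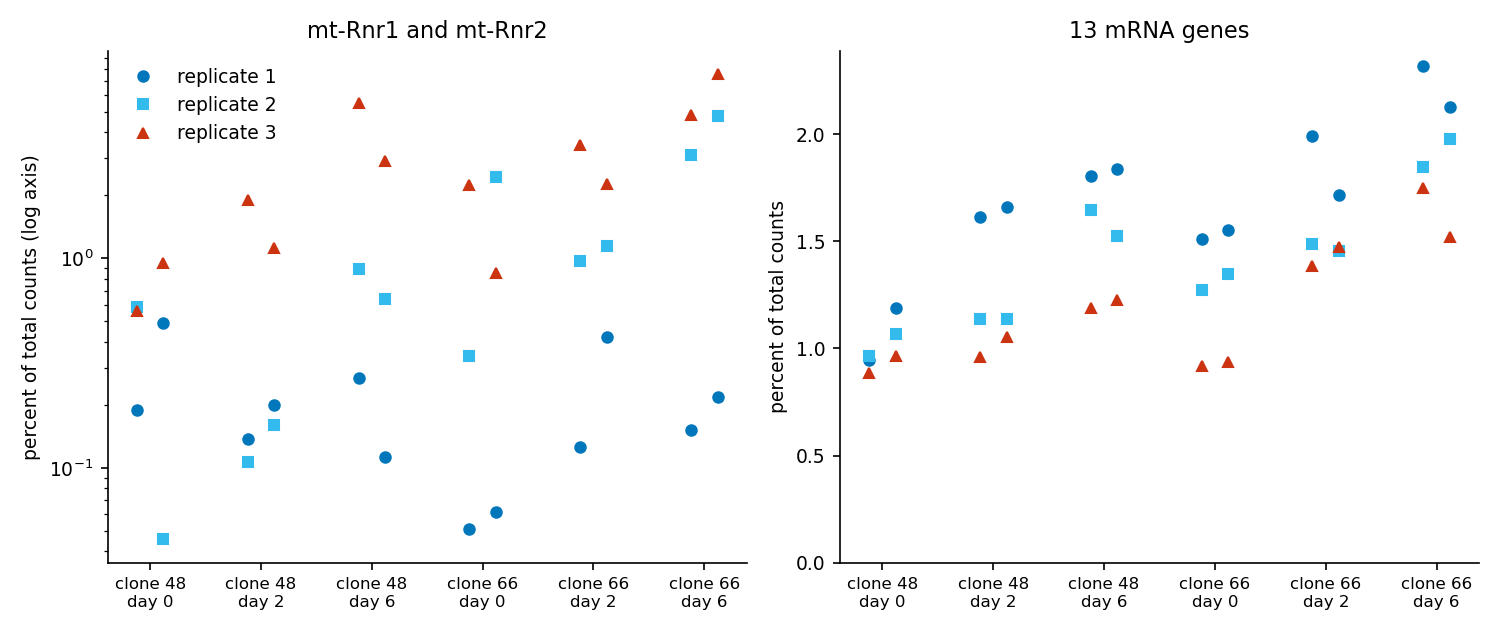
Percent of the total counts of a library taken by the 2 rRNA genes (left, log axis) and by the 13 mRNA genes (right), by clone and day, with 1 point per library (RxraWT on the left and RxraSA on the right of each place) coloured by replicate number. The rRNA percent spans 0.0456 to 7.57 and is mostly highest in replicate 3, while the mRNA percent spans 0.883 to 2.32 and is mostly highest in replicate 1.

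The tRNA genes were counted at low levels with 1 exception, mt-Tp. Mature tRNAs are short and folded, and the counts of these genes are of whatever longer or fragmented RNA the protocol captured. Reads that overlap more than 1 gene were not counted, and many tRNA genes directly abut their neighbours. No annotated gene follows mt-Tp, and a gap of 32 bases lies between mt-Tn and mt-Tc. The part of this counting rule in the tRNA levels was not tested. The gene mt-Tp, on the minus strand, held 75.9% of the 29064 tRNA counts, mt-Tc 9.07%, and mt-Tt, with a mean of 20.7 counts per library, came next. The genes mt-Td, mt-Tk and mt-Tg, all in the copied stretch, were at 0 in every library. The 3 genes with the highest mean counts are printed in the sense of the RNA, as DNA letters, from the GENCODE M21 transcripts, with mt-Tf, which starts the chromosome and had 0 to 4 counts, for contrast.
mt-Tp: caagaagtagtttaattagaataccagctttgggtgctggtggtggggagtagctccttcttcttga
mt-Tc: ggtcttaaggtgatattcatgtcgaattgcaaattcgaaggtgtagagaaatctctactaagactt
mt-Tt: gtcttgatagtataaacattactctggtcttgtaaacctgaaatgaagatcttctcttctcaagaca
mt-Tf: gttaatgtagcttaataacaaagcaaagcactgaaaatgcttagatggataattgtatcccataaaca
They lie at chrM:15356-15422 on the minus strand for mt-Tp, chrM:5192-5257 on the minus strand for mt-Tc, chrM:15289-15355 on the plus strand for mt-Tt and chrM:1-68 on the plus strand for mt-Tf. The genes mt-Tp and mt-Tt lie side by side on opposite strands, directly after mt-Cytb, and mt-Tp is the last annotated gene before the control region.

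Of the 19 tested chrM genes, the proline tRNA gene mt-Tp had the largest log2 change from day 0 to day 6 after mt-Rnr1. It lay between 7.75 and 18.6 CPM at day 0 (median 11.1), 15.7 and 24.6 CPM at day 2 (median 20.5) and 39.7 and 113 CPM at day 6 (median 70.6). The 12 day 6 libraries stood wholly above both earlier days, which overlapped with each other. Against day 0 it rose by 0.73 (SE 0.16, adjusted p = 0.00014) at day 2 and by 2.49 (SE 0.17, adjusted p = 2.6e-15) at day 6 on the log2 scale. Measured against the mitochondrial mRNA sum it was at 0.15 (adjusted p = 0.248) and 1.67 (adjusted p = 2.28e-14), and against the 5 mRNA genes outside the copied stretch at -0.21 and 1.52. The count ratio of mt-Tp to its neighbour mt-Cytb had medians of 0.0152, 0.0161 and 0.0532, and day 6 did not overlap with either earlier day. Counting did not use strand, so plus-strand RNA over mt-Tp cannot be told apart from RNA of the gene itself. The same holds for the other minus-strand tRNA genes.

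Of the 9 tested tRNA genes, 9 were called higher at day 2 than at day 0, where 35.8% of all genes were, and 7 at day 6 than at day 0, where 32.9% were. By their day 0 counts alone mt-Tq (0 to 7), mt-Tt (2 to 21), mt-Tl2, mt-Ts2, mt-Tn and mt-Ty would not have passed the filter on low counts. They passed it with the later days, so these counts and their changes against day 0 are a description. By their day 2 counts alone mt-Tq and mt-Tn would not have passed either, so their changes between days 2 and 6 are a description too. The threonine tRNA gene mt-Tt had the largest rise to day 2, from a range of 0.150 to 1.07 CPM (median 0.432) to one of 0.992 to 2.25 CPM (median 1.94), by 1.97 on the log2 scale (SE 0.23, adjusted p = 1.93e-09). It then fell by 0.64 (SE 0.20, adjusted p = 0.0074) to day 6, and this fall was 0.50 and not called without replicate 1 of clone 48. All 12 same-numbered pairs of mt-Tt were lower at day 6 than at day 2, though the numbers do not pair the days throughout. The cysteine gene mt-Tc had medians of 2.48, 5.23 and 4.11 CPM. It rose by 1.18 (SE 0.24) to day 2 and differed by -0.50 (SE 0.23, adjusted p = 0.0614) between days 2 and 6. Between those days mt-Tq, of glutamine, rose by 0.72 (SE 0.27) and mt-Tn, of asparagine, fell by 0.97 (SE 0.39) at 0 to 33 counts per library. The change of mt-Tq was not called without replicate 2 of clone 66 (0.49), nor that of mt-Tn without replicate 3 of clone 48 (-0.88) or of clone 66 (-0.94). The changes mt-Tl2 1.44 and mt-Tq 1.54 were the next largest at day 2, and mt-Tn 1.03 and mt-Ty 1.02 were, with mt-Tp, the smallest. At day 6 against day 0, mt-Tq (2.26) and mt-Ts2 (1.51) followed mt-Tp, and mt-Tn (0.06, adjusted p = 0.909) and mt-Ty (0.63, adjusted p = 0.0613) were not called. The other 13 tRNA genes were not tested, and counting error limits all but mt-Tp and mt-Tc.

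No chrM gene was called between cells re-expressing RxraSA and RxraWT at any day. For mt-Co1 the range at day 6 was 8988 to 20656 CPM (median 14180) with RxraWT and 9569 to 17843 CPM (median 13819) with RxraSA. For mt-Nd6 it was 120 to 237 CPM (median 170) with RxraWT and 106 to 239 CPM (median 157) with RxraSA. The genotypes overlapped at every day for these genes. Among the 8 mRNA genes, log2 differences of RxraSA against RxraWT ran from -0.08 to 0.16 at day 0, from -0.04 to 0.60 at day 2 and from -0.14 to 0.45 at day 6, and the 2 largest were of the sparsely counted mt-Nd3. The SE of a difference was 0.10 for mt-Nd5, 0.18 for mt-Co1 and 0.20 for mt-Cytb. A call over all genes needs a difference well above its SE. Differences of that size, and larger ones up to a limit that was not worked out, could not be seen. By edgeR's test 0 genes of all those tested (0%) were called at days 0, 2 and 6, and 139, 162 and 125 had an unadjusted p under 0.05, none of them a chrM mRNA. DESeq2 also called 0 genes at each day. The interaction of genotype and time called 0 genes for each pair of days, with 144, 128 and 153 at an unadjusted p under 0.05 and 0 by DESeq2. Within a clone, the difference with the lowest p among the mRNA genes was mt-Nd3 at day 6 in clone 48, at 1.24 (SE 0.56, adjusted p = 1 by edgeR).

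The clones differed in the level of several chrM mRNAs. At day 2, mt-Cytb lay between 722 and 1300 CPM (median 999) in clone 48 and between 1544 and 1811 CPM (median 1745) in clone 66, with no overlap, a log2 difference of 0.79 (SE 0.19, adjusted p = 0.0016 by edgeR). For mt-Nd5 the ranges at that day were 340 to 454 CPM and 490 to 564 CPM, again without overlap, and the difference was 0.43 (SE 0.10, adjusted p = 0.00154 by edgeR). At day 0, clone 66 was called higher for mt-Nd1, mt-Nd5 and mt-Cytb, 3 of 8 against 12.6% of all genes higher and 11.1% lower. At day 2 it was higher for 5 of 8, mt-Nd1, mt-Nd2, mt-Nd4, mt-Nd5 and mt-Cytb, against 14.5% higher and 15.5% lower. At day 6 it was higher for mt-Nd4, mt-Nd5 and mt-Nd6, 3 of 8 against 13.4% higher and 12.8% lower. The tRNA gene mt-Ty was lower in clone 66 by 1.27 at day 2 (adjusted p = 0.0112) and by 1.22 at day 6 (adjusted p = 0.024).

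These clone counts rest on few libraries. Leaving out replicate 2 of either clone lowered the day 0 count to 0, and leaving out replicate 2 of clone 66 lowered the day 6 count to 0. At day 2 the count was 2 without replicate 2 of clone 48 or replicate 1 of clone 66, and 3 without replicate 3 of either clone. At day 6 it was 1 without replicate 1 or 3 of clone 48 and 5 without replicate 1 of clone 66. With replicate numbers as a block, 5, 6 and 6 of 8 were called at days 0, 2 and 6, all higher in clone 66. The course of mt-Cytb after day 2 was -0.54 (SE 0.19, adjusted p = 0.0168) in clone 66 and 0.06 (SE 0.19, adjusted p = 0.811) in clone 48. The difference between the clones in that change, -0.60, was not called, and was -0.65 and called with the replicate block. For the differences between clones in the changes between days, 0 mRNA genes were called by edgeR and 0 by DESeq2, with 0, 0 and 1 at an unadjusted p under 0.05, against 6.84%, 3.85% and 6.18% of all genes called for day 2 and day 0, day 6 and day 0, and day 6 and day 2.

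Around their clone, genotype and day, the counted mRNAs partly moved together. The SD of log2 CPM about the group mean had a median of 0.266 over these 7 genes. After the mean deviation of all 13 mRNA genes was taken off in each library it was 0.210, and lower for 7 of 7 genes. The lowest SD left was 0.0796 for mt-Nd5, while mt-Co1 went only from 0.326 to 0.323. With the mean over the 7 counted genes instead, the median SD was 0.198 and lower for 6 of 7, and mt-Co1 went to 0.340. These are descriptions, since each gene is itself part of the mean.

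The nuclear genes that serve mitochondrial DNA expression rose at day 2 and mostly fell from there to day 6. The list holds 54 genes for transcription, replication, RNA processing and regulation, of which 53 were tested. It was chosen with earlier results of these data known, as was that of tRNA synthetases, so their counts are a description. At day 2 against day 0, 42 of the 53 were higher and 2 lower, beside 35.8% and 37.5% of all genes, with a median log2 change of 0.63 against -0.02 for all genes. At day 6 against day 0, 31 were higher and 2 lower, beside 32.9% and 35.4% of all genes, with a median of 0.33 against -0.03 for all genes. Between days 2 and 6, 6 were higher and 32 lower, beside 31.9% and 30.1%, with a median of -0.30 against 0.01 for all genes. In these last days no chrM mRNA was called lower by the same test, and the difference between the lists was not tested. None of them was called between RxraSA and RxraWT.

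Single genes of that list show the course. Polrmt, the mitochondrial RNA polymerase, had medians of 30.4, 53.6 and 42.4 CPM at days 0, 2 and 6, a rise of 0.67 to day 2 and a fall of 0.30 from there to day 6. Tfam, which packages mitochondrial DNA and opens its promoters, had medians of 116, 192 and 167 CPM and changed by 0.73 and -0.31. Tfb2m, which melts the promoter for the polymerase, rose by 1.11 and fell by 0.99, so that day 6 differed from day 0 by 0.12 (adjusted p = 0.256).

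Lrpprc, which stabilizes mitochondrial mRNAs, had medians of 207, 372 and 227 CPM and changed by 0.82 and -0.67. Of the coactivators of mitochondrial genes, Ppargc1b had the largest rise to day 2, 3.40 (SE 0.26), and Ppargc1a rose by 0.62 and then differed by 0.01 (adjusted p = 0.962). Mrpl12, a ribosomal protein that also binds the polymerase, rose by 2.15 and Tbrg4, an RNA-stability factor, by 1.68, while Mterf4 had the smallest of the called rises, 0.25. Mterf2 fell by 0.55 and Rpusd4, a pseudouridine synthase, fell by 0.26. At day 6 against day 0 the largest rises were of Ppargc1b (2.65), Mrpl12 (1.92) and the nuclear receptor Esrra (1.27), and the lowest called values were Polg2 (-0.31), Angel2 (-0.18) and Lrpprc (0.16).

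By group, 8 of 11 transcription genes, 7 of 10 replication genes, 23 of 25 RNA-processing genes and 4 of 7 regulators were higher at day 2 than at day 0, where 35.8% of all genes were. Between days 2 and 6, 21 of the 25 RNA-processing genes were lower and 1 higher, beside 30.1% lower and 31.9% higher of all genes. Of the 10 replication genes 3 were lower and 2 higher between these days, which is near the shares of all genes. The 22 nuclear genes of mitochondrial tRNA synthetases, which load the tRNAs, had 18 higher and 2 lower at day 2 than at day 0, beside 35.8% and 37.5% of all genes, and 4 higher and 11 lower between days 2 and 6, beside 31.9% and 30.1%. Lars2, which was highest in the library that stood apart and high in replicate 1, is 1 of the 2 lower genes, and without it 18 of 21 were higher and 1 lower at day 2.

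**Figure D5:**
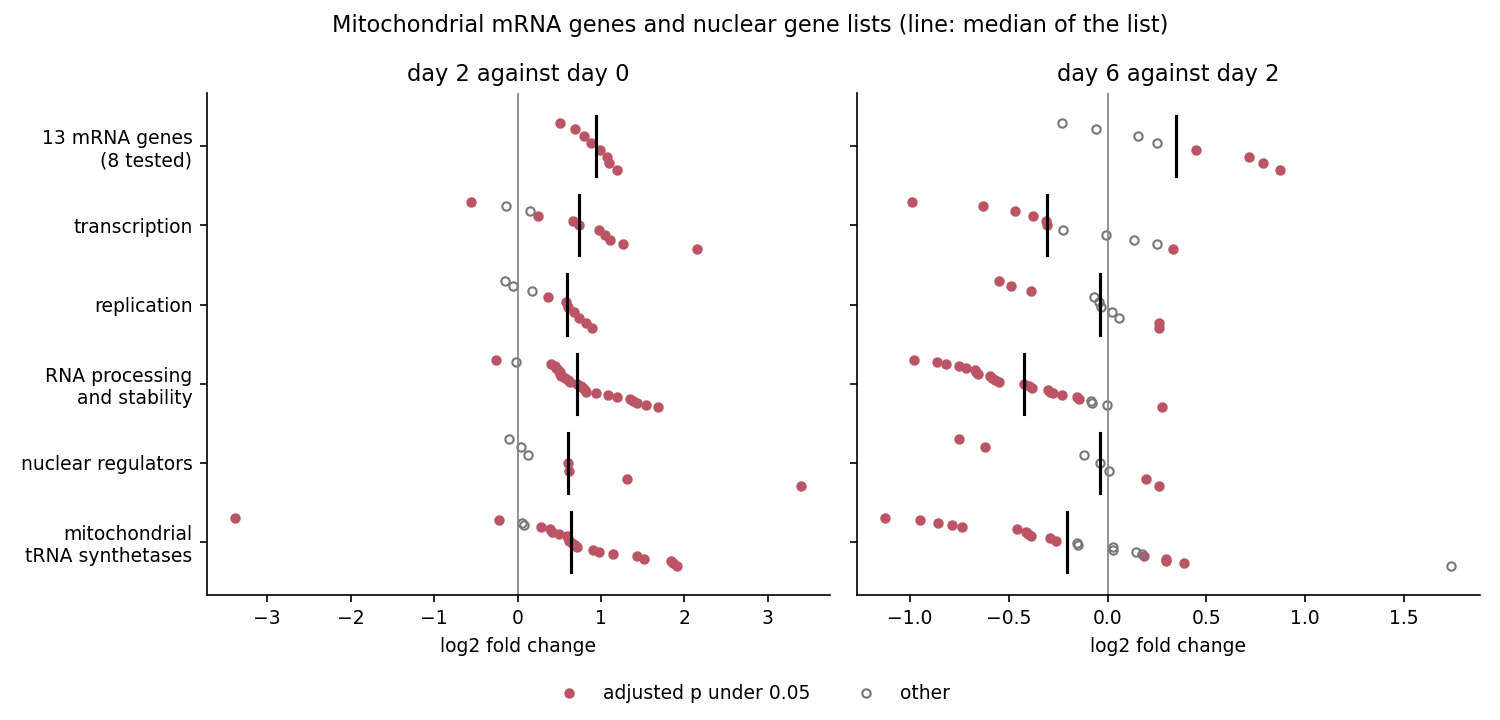
Log2 fold change of each tested gene at day 2 against day 0 (left) and day 6 against day 2 (right) for the chrM mRNA genes and 5 nuclear lists, with red points for genes called and black lines at list medians. All 8 mRNA genes are above 0 at day 2, and between days 2 and 6 the medians of the lists for transcription (-0.30) and RNA processing (-0.42) are below 0. Between those days 4 of 8 mRNA genes are called above 0, among them mt-Nd3, which passed the filter on low counts only through day 6.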

How the data were processed

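Total RNA from 36 libraries was depleted of ribosomal RNA with a stranded total RNA kit and sequenced in pairs. The authors aligned reads with STAR 2.7.0d to GRCm38, counted them over GENCODE M21 exons with featureCounts 1.6.2, without strand, multi-mapping or multi-overlapping reads, and deposited raw counts per gene. The chrM genes, their classes and coordinates were taken from the files and the same annotation, which matched all 55536 gene identifiers.

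Genes were filtered with filterByExpr, scaled by TMM and tested with the quasi-likelihood test of edgeR 4.0.16, with a coefficient per genotype and day and a clone term, after the study's methods. Clone comparisons used a coefficient per clone, genotype and day. Relative levels used the summed chrM mRNA counts as library size. Adjusted p-values run over all 16723 genes. R 4.3.3, python 3.11.15, pandas 2.3.3 and matplotlib 3.10.9 were used. The members and lists were chosen with earlier results of these data known. Of chrM, all genes could be named. The tRNA genes were named by the 3 highest and 3 lowest mean counts and the 3 largest and smallest changes, and the nuclear genes by the 3 largest and smallest called changes, plus Polrmt, Tfam, Tfb2m, Lrpprc and Ppargc1a.

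Replicate numbers are shared by the labels of all groups. Deviations from the group means correlated over 0.1 in 18 of 18 same-numbered pairs of RxraWT and RxraSA (0.176 to 0.930 over 9381 genes), so the numbers pair the genotypes, and in 27 of 36 pairs of days, so they do not pair the days throughout. No replicates were duplicates, with a chi-square per degree of freedom of at least 12.2. On simulated counts of day 2 against day 0 over 16723 genes, the test found 89 of 100 genes with a 2-fold change and 61 of 100 with a 1.5-fold change, and it called 5 of the 16523 left alone. Alternatives were the replicate block, RLE size factors, library size alone, nuclear counts for scaling, no filter, a filter of 1 CPM in 6 libraries, DESeq2 1.42.0, omitted libraries and 2 further references for relative levels. The length outside the copied stretch, the mean over 7 genes and the alternatives for nuclear genes were chosen after seeing the data.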

Additional observations from a re-analysis of the deposited data

Results flagged for a closer look

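Single libraries lay far from the other 5 of their group in 11 of 144 groups of 6 libraries, 7.64%. The limit passes about 1 in 20 groups of independent, normally spread values. These groups mix clones or genotypes, share libraries and repeat the rRNA signal, so that rate is no measure of chance here. In RxraWT at day 0, replicate 3 of clone 66 was far above the others for mt-Rnr1 (3199 CPM), mt-Rnr2 (17638 CPM) and the percent of counts taken by both (2.23%). In RxraSA at day 0, replicate 2 of clone 66 stood out for mt-Rnr1 (2470 CPM). Among all day 0 libraries of clone 66 this library was also the highest for mt-Nd2 (156 CPM), mt-Nd4 (152 CPM) and mt-Nd5 (350 CPM). In RxraSA at day 6, replicate 2 of clone 66 stood out for mt-Nd1 (1954 CPM) and mt-Cytb (1623 CPM). Among the clone 48 libraries of a day, RxraWT replicate 3 stood out for mt-Rnr1 at day 2 (4793 CPM) and at day 6 (11679 CPM). The part of RNA quality or of rRNA removal in these values was not tested.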

How the results depend on the processing

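The count of mRNA genes called between days stayed at 7 to 8 (day 2 against day 0), 7 to 8 (day 6 against day 0) and 3 to 5 (day 6 against day 2) when replicates were left out, and at 4, 4 to 5 and 2 to 4 relative to the mRNA sum. The counts of 7 came where mt-Nd3 no longer passed the filter on low counts, without replicate 2 or 3 of clone 66. For the nuclear genes it was 42 to 45, 30 to 33 and 31 to 37. For clone 66 against clone 48 the counts were 0 to 3 at day 0, 2 to 7 at day 2 and 0 to 5 at day 6. With the replicate block these clone counts were 5 at day 0 and 6 at day 6, and the count for differences between clones in the changes between days was 1. The block also called mt-Co1 (0.25) and mt-Rnr2 (1.02) between days 2 and 6, and changed no call between genotypes. Library size alone gave 2 clone calls at day 2 and 1 at day 6, and no filter gave 5 at day 6. The cause of these moves was not tested. Genotype, interaction and clone difference counts were 0 in every omission.

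Relative to the mRNA sum and among values called under at least 1 of the settings, signs turned for mt-Nd4 (-0.19 with the median ratio and -0.22 with the genes outside the stretch) and mt-Nd5 (-0.010 and -0.039) at day 2 against day 0, and with the median ratio for mt-Nd1 (-0.33) and mt-Nd4 (-0.10) at day 6 against day 0. Of the values not called either way 17 more turned, among them mt-Tp (-0.18 and -0.21) and mt-Cytb (-0.075 and -0.097) at day 2 against day 0. Per kilobase outside the stretch, mt-Co1 moved to 10722 and mt-Nd4 to 276 CPM. Of 327 log2 fold changes of mRNA genes, 320 kept direction and call, as did 79 of 84 for rRNA, 338 of 360 for tRNA and 477 of 555 relative ones. Low counts limit the 6 mRNA genes in the copied stretch and all tRNA genes but mt-Tp and mt-Tc. Unstranded counting limits mt-Nd5, mt-Nd6 and the minus-strand tRNA genes such as mt-Tp, which cannot be told apart from antisense RNA.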
